A study of Mus musculus with 8 samples.

Results

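The choroid plexus is the secretory epithelium of the brain ventricles, and 10 genes known for their expression in it were followed in RNA described as astrocytic: Ttr, Kcne2, Aqp1, Folr1, Kl, Clic6, Otx2, Slc4a5, Prlr and Sostdc1. They were 10 of 37008 genes on the array, read by 18 of 56605 probes that carry these gene names in the scanner output. The list was drawn up because Ttr, Kcne2, Aqp1 and Folr1 had differed between single arrays, so those differences are given below as a description. The samples were single-colour Agilent arrays, 8 in all, of total RNA from C57Bl/6J mice, with spinal cord as the labelled tissue. There was 1 array for each group: Cx47-deficient mice and wild-type (WT) mice, each in 4 conditions: naive, experimental autoimmune encephalomyelitis (EAE, a mouse model of multiple sclerosis), EAE treated with iguratimod, and the chronic phase of EAE. Connexin 47 (Cx47) forms gap junctions between oligodendrocytes and astrocytes, and iguratimod is an anti-inflammatory compound. Sample titles mark the Cx47-deficient mice as icKO and the WT mice as FL or F/F. Titles of both chronic samples also hold p50, a mark that the labels do not explain. The cell type and time of any deletion, the age of the mice and whether animals were pooled were not given in the sources used here. No group has a second array, so a difference between single arrays has no replicate and carries no p-value.

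Choroid plexus epithelium hangs from the walls of the ventricles, filters blood and secretes cerebrospinal fluid. Its cells carry ion and water transporters on the face toward the fluid, take up vitamins and hormones from the blood side, and release carrier proteins and signalling factors into the ventricle. The spinal cord's central canal is lined by ependymal cells and has no choroid plexus. Astrocytes are a different lineage, known for Gfap, Aqp4 and Gja1.

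All 10 genes were well above background on all 8 arrays through the probe with the highest mean signal, which stands for the gene below. Levels are log2 of the processed signal relative to the 75th percentile of the array, so 0 is a spot at that percentile. Of the 18 probes, 12 were well above background on all 8 arrays and 2 on none. A spot in the scanner output was saturated for 0 of the 18. Genes of other lists were also present: 12 of 12 astrocyte genes, 10 of 10 neuron genes, 9 of 9 cerebellar neuron genes and 14 of 16 Hox genes were well above background on every array. So were 8 of 8 oligodendrocyte, 8 of 8 myeloid, 10 of 10 meningeal fibroblast, 11 of 12 ependymal and 9 of 10 endothelial genes. Lists with lower shares were striatal neuron (6 of 8), erythroid (4 of 7) and hepatocyte (1 of 6). Over all genes, 20386 had a probe well above background on every array, against 25883 genes tested. Of 26 further choroid plexus genes, 25 were measured and 21 were well above background on every array. Between 59.7% and 72.0% of spots on an array were well above background. Both chronic arrays were on slide 2 and the other 6 on slide 1, so chronic EAE and the slide cannot be told apart.

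Ttr encodes transthyretin, the thyroxine carrier that choroid plexus secretes into cerebrospinal fluid. On Cx47-deficient arrays its log2 level was 3.60 naive, 3.59 in EAE, 3.13 with iguratimod and 4.18 in the chronic phase. On WT arrays it was 3.24 naive, 4.92 in EAE, 5.11 with iguratimod and 1.34 in the chronic phase. The Cx47-deficient arrays lay between 3.13 and 4.18, and the WT arrays held both the 2 highest levels and the lowest one. From the highest to the lowest array Ttr spanned 3.77 on the log2 scale, or 13.6-fold. On a linear scale, with the 75th percentile at 1, the signal was 34.5 on the WT iguratimod array and 2.54 on the WT chronic array. A second Ttr probe, fainter but well above background on all 8 arrays, differed from the first by a root mean square of 0.25 after each was centred on its own mean, and gave genotype differences of the same sign in all 4 conditions (Cx47-deficient minus WT 0.49 naive, -0.96 in EAE, -2.16 with iguratimod and 2.68 in the chronic phase). In bulk RNA, fewer cells of a type and less RNA per cell cannot be told apart, for Ttr and for the genes that follow.

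**Figure D1:**
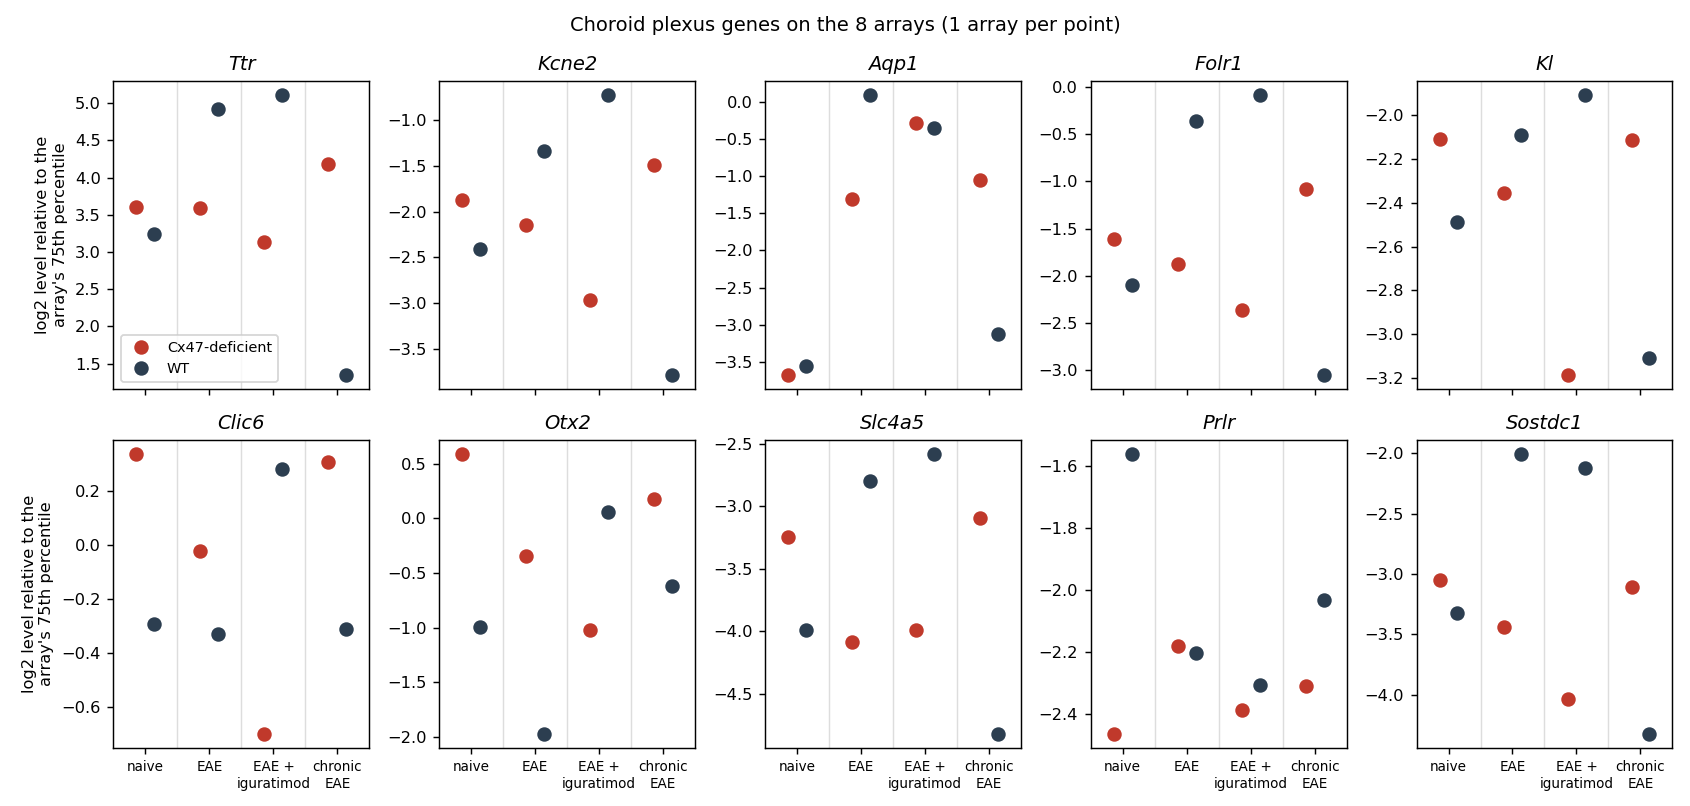
Each panel shows one gene, with the condition on the horizontal axis and the log2 level relative to the array's 75th percentile on the vertical axis; red points are Cx47-deficient and dark points WT arrays, 1 array per point with no error bar, and vertical axes differ between panels. The WT chronic point is the lowest of the 8 for Ttr, Kcne2, Folr1, Slc4a5 and Sostdc1, and the WT iguratimod point is the highest for Ttr, Kcne2, Folr1, Kl and Slc4a5.

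Kcne2, Folr1, Slc4a5 and Sostdc1 ran through the 8 arrays much as Ttr did. Kcne2 is a potassium channel subunit of the fluid-facing membrane, Folr1 the receptor that carries folate into cerebrospinal fluid, Slc4a5 a sodium bicarbonate cotransporter, and Sostdc1 a secreted antagonist of BMP and Wnt signalling. Probes are shown by their first 30 of 60 bases, because these 4 genes carry the shared pattern. Positions are on mm9 as the scanner files give them.
Kcne2, chr16:92298155-92298214, plus strand: gttccaagccattctagacccattgcactg
Folr1, chr7:109006846-109006905, minus strand: gtggtggggctctgacagcctctttaataa
Slc4a5, chr6:83254819-83254878, plus strand: atattttgtgtacacgtgaacactttcact
Sostdc1, chr12:37044787-37044846, plus strand: tgtaaaataaatgttttactctccgtatat

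Kcne2 had log2 levels of -1.87 naive, -2.15 in EAE, -2.97 with iguratimod and -1.49 in the chronic phase on Cx47-deficient arrays, and of -2.41 naive, -1.33 in EAE, -0.72 with iguratimod and -3.79 in the chronic phase on WT arrays. Folr1 had levels of -1.61 naive, -1.88 in EAE, -2.36 with iguratimod and -1.08 in the chronic phase on Cx47-deficient arrays, and of -2.10 naive, -0.36 in EAE, -0.09 with iguratimod and -3.05 in the chronic phase on WT arrays. The 8 arrays stand in the same order for Ttr, Kcne2 and Folr1, with WT iguratimod first, WT EAE second, Cx47-deficient chronic next and WT chronic last. Slc4a5 had levels of -3.25 naive, -4.08 in EAE, -3.99 with iguratimod and -3.09 in the chronic phase on Cx47-deficient arrays, and of -3.99 naive, -2.80 in EAE, -2.58 with iguratimod and -4.82 in the chronic phase on WT arrays. Sostdc1 had levels of -3.05 naive, -3.44 in EAE, -4.03 with iguratimod and -3.11 in the chronic phase on Cx47-deficient arrays, and of -3.32 naive, -2.002 in EAE, -2.12 with iguratimod and -4.32 in the chronic phase on WT arrays. For both genes the WT EAE and WT iguratimod arrays were the highest pair and the WT chronic array the lowest. The second Folr1 probe was well above background on 3 arrays, at -4.54 on WT EAE, -4.65 on WT iguratimod and -5.45 on WT chronic. The second Slc4a5 probe was well above background on 0 arrays.

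Kcne2 and Slc4a5 are shown with the 250 bases upstream of their starts (RefSeq, GRCm38.p6), since both moved with Ttr. A search was made for TAATCC, or GGATTA as it reads on the other strand, letters that homeodomain proteins of the Otx family are known to bind (the 2 spellings can share letters, and a window with either counts once). Neither window holds it. Among the 12 windows that the table gives for 6 of the 10 genes, 1 holds it, a window of Otx2 itself, against 2054 of 32851 windows (6.25%) in the whole table. Ttr, Folr1, Clic6 and Sostdc1 have no window in the table used here. A match is a description of these letters only. The share of G and C was 52.4% for Kcne2 and 62.8% for Slc4a5.
Kcne2, chr16:92292139-92292388, plus strand: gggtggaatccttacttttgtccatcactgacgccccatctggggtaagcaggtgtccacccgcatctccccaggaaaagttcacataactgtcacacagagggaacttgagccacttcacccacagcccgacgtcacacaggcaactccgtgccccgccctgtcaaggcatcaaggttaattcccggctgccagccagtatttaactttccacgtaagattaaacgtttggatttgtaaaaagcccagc
Slc4a5, chr6:83237125-83237374, plus strand: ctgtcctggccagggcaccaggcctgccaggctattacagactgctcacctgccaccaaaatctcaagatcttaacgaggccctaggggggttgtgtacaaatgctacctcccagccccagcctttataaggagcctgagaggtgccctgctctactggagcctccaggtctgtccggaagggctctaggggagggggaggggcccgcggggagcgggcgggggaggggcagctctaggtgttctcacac

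Kl and Clic6 had a narrower range. The sign of their Cx47-deficient minus WT difference was that of Ttr in all 4 conditions for Kl and in 3 of 4 for Clic6, EAE being the exception. Kl encodes klotho, a membrane protein of choroid plexus and kidney that serves as a receptor partner for FGF23, and Clic6 is a chloride intracellular channel protein. Kl had log2 levels of -2.11 naive, -2.35 in EAE, -3.19 with iguratimod and -2.11 in the chronic phase on Cx47-deficient arrays, and of -2.49 naive, -2.09 in EAE, -1.91 with iguratimod and -3.11 in the chronic phase on WT arrays. Its highest array was WT with iguratimod, as for Ttr, but its lowest was Cx47-deficient with iguratimod. Clic6 had levels of 0.34 naive, -0.02 in EAE, -0.70 with iguratimod and 0.31 in the chronic phase on Cx47-deficient arrays, and of -0.29 naive, -0.33 in EAE, 0.28 with iguratimod and -0.31 in the chronic phase on WT arrays. The 8 Clic6 levels span 2.05-fold and the 8 Kl levels 2.43-fold. A second Kl probe was well above background on 0 arrays, so its pattern rests on the probe chr5:151796302-151796361.

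Aqp1, the water channel of the fluid-facing membrane, which other epithelia and some endothelia also make, was lowest on both naive arrays under this scaling, with the WT chronic array next. Its log2 level was -3.68 naive, -1.31 in EAE, -0.29 with iguratimod and -1.05 in the chronic phase on Cx47-deficient arrays. On WT arrays it was -3.56 naive, 0.09 in EAE, -0.35 with iguratimod and -3.12 in the chronic phase. Both EAE arrays and both iguratimod arrays lay above both naive arrays, and the WT chronic array lay nearer to the naive arrays than the Cx47-deficient chronic array did. Its levels span 13.6-fold, with naive Cx47-deficient the lowest array and WT EAE the highest. Its probe lies at chr6:55298480-55298539 on the plus strand of mm9 and begins, shown for comparison with the 4 above, as follows.
Aqp1: ctgtgtatgtttctttgcaattgaatttca

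Otx2 and Prlr did not share the Ttr pattern. Otx2 is a homeobox factor needed to form choroid plexus and is also known from precursors of cerebellar granule neurons. Its log2 level was 0.60 naive, -0.35 in EAE, -1.02 with iguratimod and 0.18 in the chronic phase on Cx47-deficient arrays, and -0.997 naive, -1.97 in EAE, 0.06 with iguratimod and -0.62 in the chronic phase on WT arrays. The WT EAE array, second highest for Ttr, was lowest for Otx2, and the naive Cx47-deficient array was highest. The summed linear level of 9 cerebellar neuron genes, which include Pcp2, Cbln1 and Gabra6, was 283 naive, 146 in EAE, 87.6 with iguratimod and 213 in the chronic phase on Cx47-deficient arrays, against 106.7 naive, 43.2 in EAE, 271 with iguratimod and 109 in the chronic phase on WT arrays. Over the 8 arrays the Otx2 profile lay 0.26 from the mean profile of these cerebellar genes and 0.84 from that of the other choroid plexus genes. These are root mean square differences of centred log2 levels. The part of cerebellar RNA in the Otx2 level was not tested.

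Otx2 has 3 probes, shown because they read different stretches of the gene and do not agree in every pair. Capitals mark the letters GGATTA, which the third probe holds.
Otx2 gene probe, chr14:49277855-49277914, minus strand: tttcagggctgtgtggattgtgcgactgat
Otx2 second probe, chr14:49281026-49281085, minus strand: tagggcacagctcgacgttctggaagctct
Otx2, the third probe, chr14:49284952-49285011, minus strand: gggacgtgtgcccctcGGATTAtctcgtta
The second probe was well above background on 7 arrays, all but WT EAE, and gave Cx47-deficient minus WT differences of 1.39 naive, -1.14 with iguratimod and -0.14 in the chronic phase. The gene probe gave 0.80 in chronic EAE, so the sign there differs between these probes. The third probe was well above background on 4 arrays, both chronic ones among them, and gave 0.66 there, the same sign as the gene probe.

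Prlr encodes the prolactin receptor, through which choroid plexus is known to bind prolactin from blood. Its log2 level was -2.46 naive, -2.18 in EAE, -2.39 with iguratimod and -2.31 in the chronic phase on Cx47-deficient arrays, and -1.56 naive, -2.20 in EAE, -2.31 with iguratimod and -2.03 in the chronic phase on WT arrays. All 8 levels lie within 1.87-fold, and the naive WT array was the highest. Its profile lay 0.27 from the mean profile of general neuron genes and 0.51 from that of the other choroid plexus genes. The third Prlr probe is shown because it departs from the rest on 1 array.
Prlr gene probe, chr15:10259066-10259125, plus strand: caggttaacactacagagtcatgaaggaat
Prlr, the third probe, chr15:10278249-10278308, plus strand: cacaagaagcctctgtcttccatattgatc
The third probe was well above background on the WT chronic array alone, at -3.69, and at or under -5.83 on the other 7, on none of which it was well above background. The second probe was well above background on all 8 arrays, 0.40 from the gene probe as a root mean square of centred levels, and it too was highest on the naive WT array. The gene probe on the WT chronic array stood at -2.03, inside the range of the other 7.

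**Figure D2:**
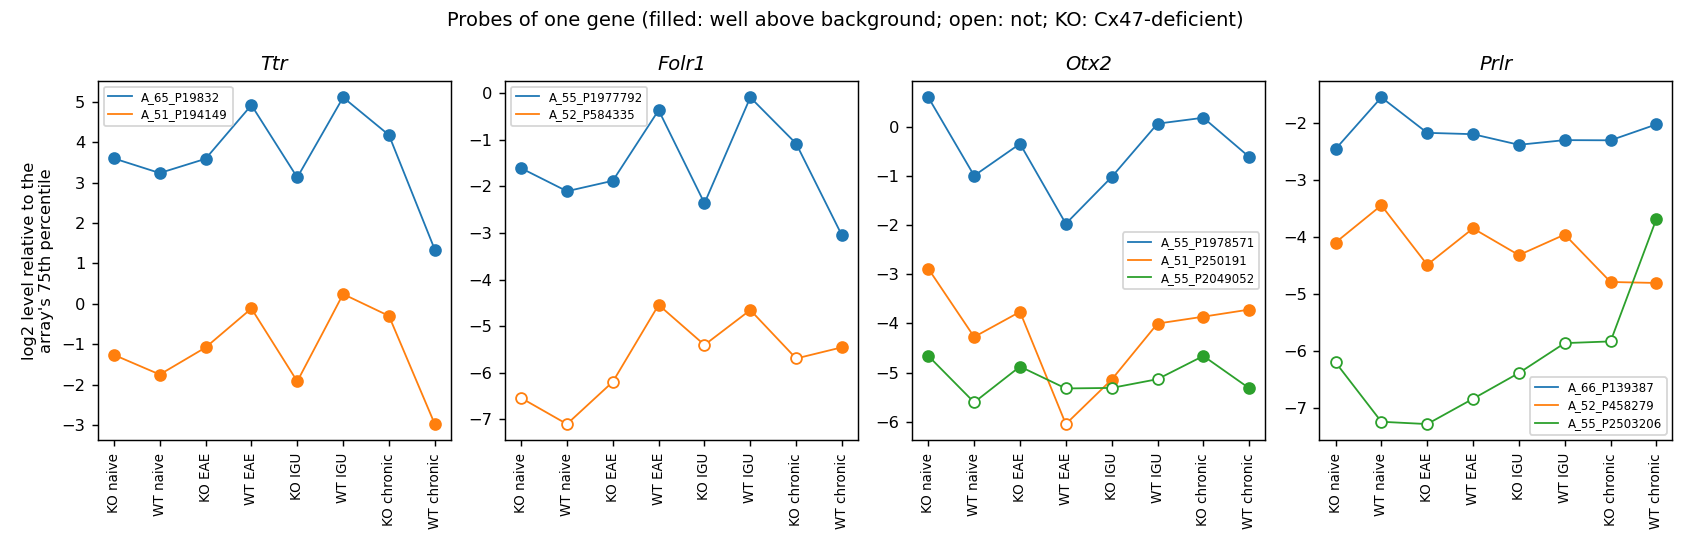
Each panel gives the probes of one gene, with the 8 arrays on the horizontal axis (KO stands for Cx47-deficient) and the log2 level relative to the array's 75th percentile on the vertical axis; filled points are well above background, open points are not, and lines only join the points of a probe. Both Ttr probes trace the same course, the second Folr1 probe is above background on 3 arrays, and the third Prlr probe is above background on the WT chronic array only.

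Whether Cx47 deficiency went with a different level was asked within each condition, for 1 Cx47-deficient against 1 WT array, with a 2-fold difference as the threshold. In naive mice 1 of the 10 was higher, Otx2 by 1.59 on the log2 scale, and 0 were lower, where 10.7% of all genes compared were 2-fold apart. In EAE 5 were lower in Cx47-deficient mice and 1 higher, where 7.39% of genes were 2-fold apart and 0.677% were lower. The lower ones were Folr1 (-1.52), Sostdc1 (-1.43), Aqp1 (-1.40), Ttr (-1.33) and Slc4a5 (-1.28), and Otx2 was higher (1.63). With iguratimod 7 were lower in Cx47-deficient mice, where 4.85% of genes were 2-fold apart and 2.26% were lower. These were Folr1 (-2.27), Kcne2 (-2.25), Ttr (-1.98), Sostdc1 (-1.91), Slc4a5 (-1.41), Kl (-1.28) and Otx2 (-1.08), whereas Aqp1 differed by 0.06. In chronic EAE 6 were higher in Cx47-deficient mice and 0 lower, where 2.92% of genes were 2-fold apart and 1.63% were higher. These were Ttr (2.83), Kcne2 (2.30), Aqp1 (2.07), Folr1 (1.97), Slc4a5 (1.72) and Sostdc1 (1.22), while Kl (0.99) lay just under the threshold. The Folr1 call rests on 1 probe: the mean of both its probes gave 0.87, and its second probe, well above background on the WT but not on the Cx47-deficient chronic array, gave -0.24. Nothing is read from these counts against the percentages, since the genes were chosen on such differences.

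The median Cx47-deficient minus WT difference of the 10 genes was 0.44 naive, -1.05 in EAE, -1.35 with iguratimod and 1.47 in the chronic phase, where the median of all genes lay between -0.05 and 0.02. The median of the 10 changed sign between conditions. Of the 10 genes, 7 were 2-fold higher in 1 condition and 2-fold lower in another, where 488 of 22229 genes (2.2%) were. The list was drawn up because of differences between single arrays, so nothing is read from these shares. For Ttr, Kcne2, Folr1, Slc4a5 and Sostdc1 the opposite ends were chronic EAE and EAE with iguratimod. Averaged over the 4 conditions, limma's fit gave 0 calls of 10 for genotype at a Benjamini-Hochberg adjusted p under 0.05 (0% of all genes), 0 of 10 at an unadjusted p under 0.05 (4.42% of all genes), and log2 estimates between -0.46 ± 0.57 (Sostdc1) and 0.73 ± 0.50 (Otx2, SE). In that fit a difference that varies between conditions counts as spread, so the estimate for Ttr was -0.03 ± 0.83.

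**Figure D3:**
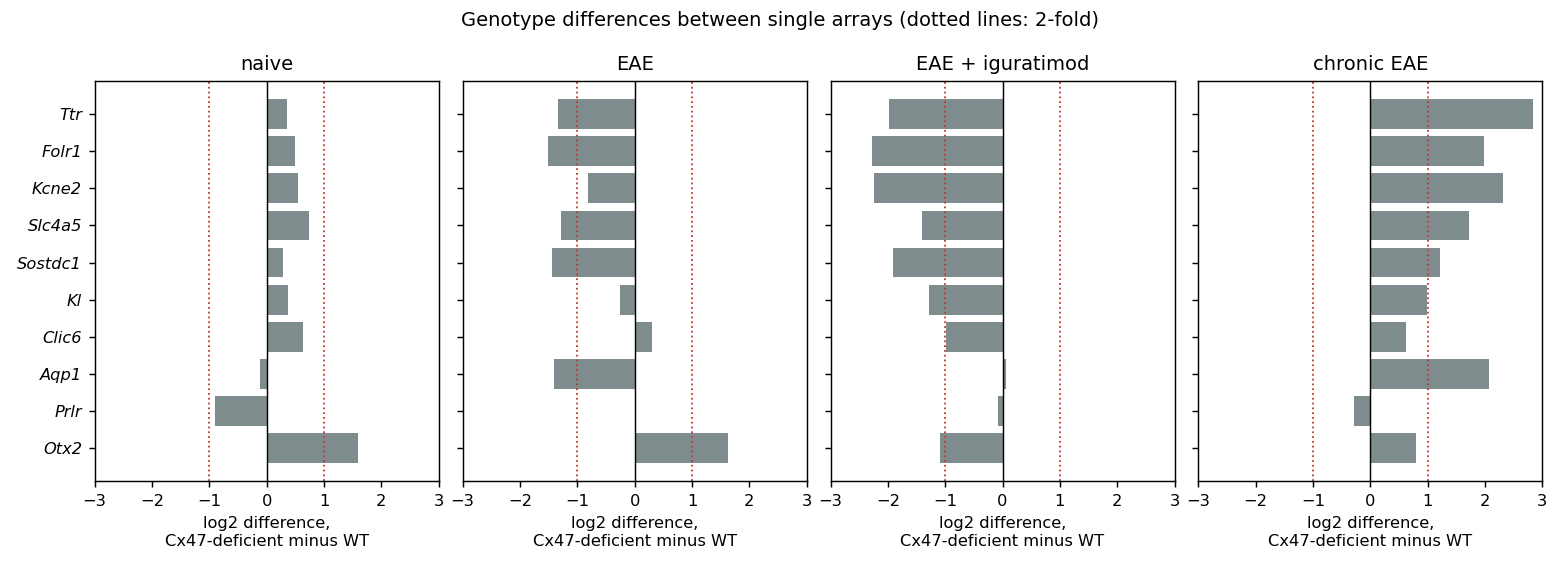
Each panel gives 1 condition, with the log2 difference of Cx47-deficient minus WT on the horizontal axis and the genes down the page, ordered by likeness to Ttr; each bar is a difference between 2 single arrays with no error bar, and dotted lines mark 2-fold. Bars for Ttr, Folr1, Kcne2, Slc4a5 and Sostdc1 point left in both EAE panels before the chronic one, which has them pointing right.

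EAE was set against the naive state next. Aqp1 was higher in EAE in both genotypes, by 2.37 on the log2 scale in Cx47-deficient mice and 3.64 in WT mice, both single-array differences. In Cx47-deficient mice it was the 1 gene of 10 past 2-fold, where 7.2% of genes were. In WT mice 6 of 10 were higher and 0 lower, where 5.27% of genes were 2-fold apart and 3.35% higher. Beside Aqp1 these were Folr1 (1.74), Ttr (1.68), Sostdc1 (1.32), Slc4a5 (1.19) and Kcne2 (1.08), which in Cx47-deficient mice differed by -0.27 for Folr1, -0.01 for Ttr, -0.39 for Sostdc1, -0.83 for Slc4a5 and -0.28 for Kcne2. The difference between the genotypes in these values was not tested. Fitted over both genotypes, 0 of 10 genes were called by limma (0.251% of all genes were) and 1 had an unadjusted p under 0.05 (7.17% of all genes had). That gene was Aqp1, with a mean of -0.61 in EAE and -3.62 in naive mice, a log2 difference of 3.004 ± 0.79 (SE, 8.02-fold) and limma adjusted p = 0.332. Aqp1 was among the genes chosen on differences between arrays, so its p-values are a description and no test. The Aqp1 difference was 1.97 without the WT EAE array and 1.96 after normexp. Its EAE arrays did not overlap its naive arrays, as for 30.2% of all genes, and the other 9 overlapped.

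The Aqp1 difference stood beside that of other cell types' genes. The summed linear level of 10 endothelial genes was 31.9 and 31.1 on the Cx47-deficient and WT EAE arrays, against 6.17 and 10.9 on the Cx47-deficient and WT naive arrays, and all 10 had fitted EAE minus naive values above 0 with a median of 2.14 and 0 calls. Meningeal fibroblast genes had 10 of 10 above 0 with a median of 0.96, and myeloid genes 6 of 8 with a median of 1.505, both with 0 calls. Of all genes tested, 40.5% were above 0, with a median of -0.06. The Aqp1 profile lay 0.88 from the mean endothelial profile, nearer than to any of the other 12 lists. It lay 1.30 from the mean profile of the other choroid plexus genes. The endothelial gene Ly6c1 had log2 levels of 3.88 in EAE and -0.57 in naive Cx47-deficient mice, and of 3.66 in EAE and 1.11 in naive WT mice. The part of endothelial, meningeal or myeloid RNA in the Aqp1 level was not tested.

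Iguratimod-treated EAE mice were compared with untreated EAE mice. In Cx47-deficient mice 1 of 10 genes was 2-fold higher with iguratimod, Aqp1 by 1.03 on the log2 scale, and 0 were lower, where 3.8% of genes were 2-fold apart. In WT mice 1 of 10 was higher, Otx2 by 2.03, and 0 were lower, where 4.3% of genes were 2-fold apart. That pair of WT arrays also differed in the cerebellar genes given above. Ttr differed by -0.46 in Cx47-deficient and by 0.19 in WT mice. In limma's fit 0 of 10 were called and 0 had an unadjusted p under 0.05 (0% of all genes were called, and 2.11% had such a p), and the estimates lay between -0.36 ± 0.80 (Sostdc1) and 0.68 ± 0.70 (Otx2). Both Prlr iguratimod levels lay below both EAE levels, as did those of 12.8% of all genes, with a fitted difference of -0.16 ± 0.27.

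Chronic EAE was set against EAE and against the naive state, comparisons that share their chronic arrays with each other and their EAE and naive arrays with those above. Against EAE, Cx47-deficient mice had 0 of 10 genes past 2-fold in chronic EAE, where 17.4% of genes were, with 9 of 10 above 0 and a median of 0.43. The median in WT mice was -2.17, and WT mice had 7 of 10 genes lower and 1 higher in chronic EAE, where 30.7% of genes were 2-fold apart and 12.5% lower. The lower ones were Ttr (-3.58), Aqp1 (-3.21), Folr1 (-2.69), Kcne2 (-2.45), Sostdc1 (-2.32), Slc4a5 (-2.02) and Kl (-1.02), and Otx2 was higher (1.36). Against the naive state, Cx47-deficient mice had 1 of 10 higher, Aqp1 by 2.62, where 10.8% of genes were 2-fold apart. WT mice had 2 of 10 lower, Ttr (-1.89) and Kcne2 (-1.38), where 26.2% of genes were 2-fold apart. That count was 7 with median centring, 6 with quantile normalization or the authors' values, and 1 with normexp.

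Fitted over both genotypes, 0 of 10 were called in chronic EAE against EAE (14.5% of all genes were) and 0 against the naive state (0.947% of all genes were), and 0 had an unadjusted p under 0.05 in either, where 41.2% of all genes had one against EAE and 32.6% against the naive state. The estimates past 2-fold were Ttr against EAE at -1.49 ± 1.17 (limma adjusted p = 0.375), Aqp1 against EAE at -1.47 ± 0.79 (limma adjusted p = 0.216) and Aqp1 against naive at 1.53 ± 0.79 (limma adjusted p = 0.234). Ttr and Aqp1 were among the genes chosen on differences between arrays, so these p-values are a description and no test. The Ttr estimate was 0.41 without the WT chronic array and -3.40 without the Cx47-deficient chronic array. Its sign thus rests on the WT chronic array. For Aqp1 against EAE the estimate was -0.20 without the WT chronic array, -0.44 without WT EAE, -2.51 without Cx47-deficient EAE and -2.75 without Cx47-deficient chronic. For Aqp1 against naive it was 0.25 without the Cx47-deficient chronic array, 2.81 without the WT chronic array and 0.82 after normexp background correction. Its chronic arrays did not overlap its naive arrays, as for 66.6% of all genes, but this depended on the scaling: the WT chronic minus naive difference was 0.44, against -0.11 with median centring or the authors' values, -0.12 with quantile normalization and -0.01 with normexp, which make the groups overlap.

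The lower levels on the WT chronic array were not seen in choroid plexus genes alone. Other lists also had Cx47-deficient minus WT differences above 0 in chronic EAE: 12 of 12 ependymal genes (median 0.57, 4 past 2-fold), 12 of 12 astrocyte genes (median 0.75, 3 past 2-fold), 9 of 10 endothelial genes (median 0.92, 4 past 2-fold), 8 of 8 oligodendrocyte genes (median 0.44, 0 past 2-fold) and 5 of 5 erythroid genes (median 1.54, 4 past 2-fold). The median of 10 general neuron genes was 0.15, and 7 were above 0. Of all genes compared in that pair, 52.9% were above 0 and 1.63% were 2-fold higher. In the other pairs the erythroid medians were 1.03 naive, 0.10 in EAE and -1.45 with iguratimod, so in EAE, where the 10 choroid plexus genes had a median of -1.05, the erythroid genes did not share their sign. Past 2-fold, 3 of the 5 erythroid genes were higher in naive Cx47-deficient mice and 4 were lower in those given iguratimod. Of all genes compared, 1923 of 23833 were 2-fold higher in the naive pair and 2.26% lower in the iguratimod pair. The globin gene Hba-a1, of the erythroid list, had log2 levels of 5.32 naive, 4.59 in EAE, 3.71 with iguratimod and 4.79 in the chronic phase on Cx47-deficient arrays, and of 4.29 naive, 4.27 in EAE, 5.05 with iguratimod and 3.20 in the chronic phase on WT arrays. The Ttr profile lay 0.75 from the mean erythroid profile and 0.76 from that of the other choroid plexus genes. What blood, choroid plexus or other cells contributed to each RNA sample was not tested.

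**Figure D4:**
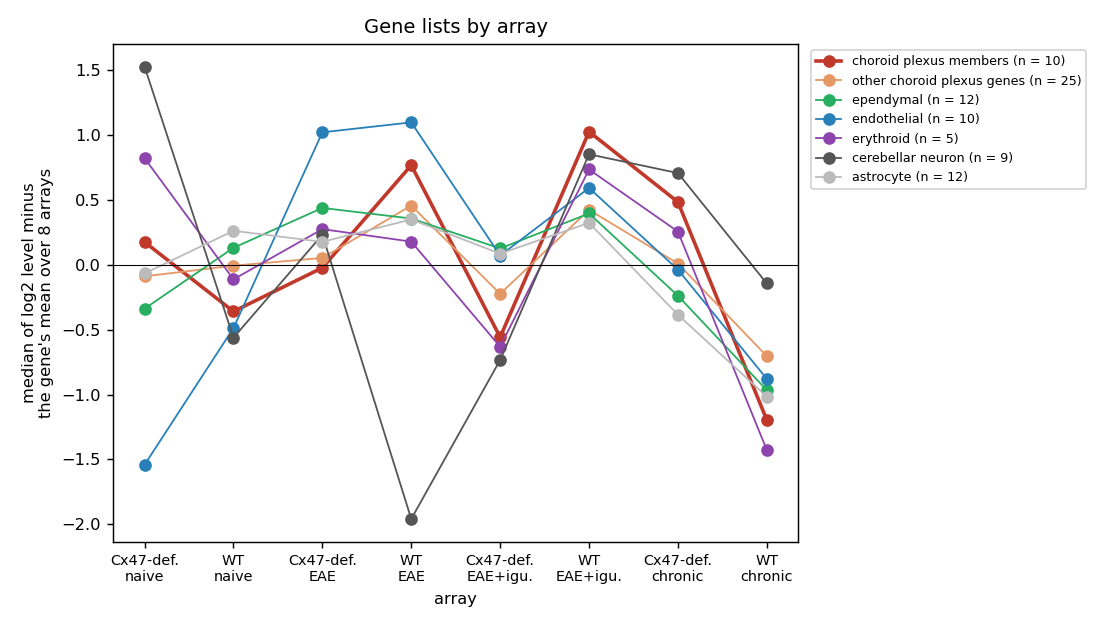
The horizontal axis gives the 8 arrays and the vertical axis the median, over the measured genes of a list, of the log2 level minus each gene's mean over the 8 arrays; lines only join the points of a list, and n is its number of genes. The 10 choroid plexus genes (red) are highest on the WT iguratimod array at 1.02 and lowest on the WT chronic array at -1.20, while cerebellar neuron genes (dark grey) are lowest on the WT EAE array at -1.96.

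The further choroid plexus genes, a list that shares no gene with the 10, had a narrower spread in the same pairs. Like the 10, they were chosen with earlier results of these data known. In chronic EAE 8 of 25 were 2-fold higher in Cx47-deficient mice and 1 was lower, with 23 of 25 above 0 and a median of 0.81. With iguratimod 6 of 25 were lower in Cx47-deficient mice and 0 higher, with 3 of 25 above 0 and a median of -0.61. In EAE 1 of 24 was lower and 0 higher, with a median of -0.24, and in naive mice 2 of 24 were higher and 0 lower, with a median of 0.05. Over all genes compared, 2.92% were 2-fold apart in chronic EAE, 4.85% with iguratimod, 7.39% in EAE and 10.7% in naive mice. Above 0 were 52.9% of all genes in chronic EAE and 46.0% with iguratimod. In limma's fits 1 of the 25 was called, lower in chronic EAE than in EAE, where 14.5% of all genes were called.

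The 6 of these genes with the widest range were Cldn2, a tight junction protein of the epithelium, Lmx1a, a transcription factor of the roof plate from which choroid plexus forms, Ecrg4, a secreted peptide precursor, Calml4, a calmodulin-like protein, Slc13a4, a sulfate transporter, and Igf2, a growth factor. Ecrg4 had log2 levels of -1.03 naive, -0.01 in EAE, -0.90 with iguratimod and -0.49 in the chronic phase on Cx47-deficient arrays, and of -1.07 naive, 0.08 in EAE, 0.28 with iguratimod and -2.51 in the chronic phase on WT arrays. Like Ttr it was highest on the WT iguratimod and lowest on the WT chronic array, but its Cx47-deficient minus WT difference in EAE was -0.09. In chronic EAE the differences were 2.08 for Lmx1a, 2.02 for Ecrg4, 1.67 for Calml4, 1.51 for Slc13a4, 1.29 for Igf2 and 0.93 for Cldn2. With iguratimod they were -1.29 for Calml4, -1.18 for Ecrg4, -1.07 for Cldn2, -0.81 for Lmx1a, -0.78 for Igf2 and -0.68 for Slc13a4. Cldn2 was well above background on 4 arrays and Lmx1a on 6, and a dim level was raised to the array's floor for these differences.

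**Figure D5:**
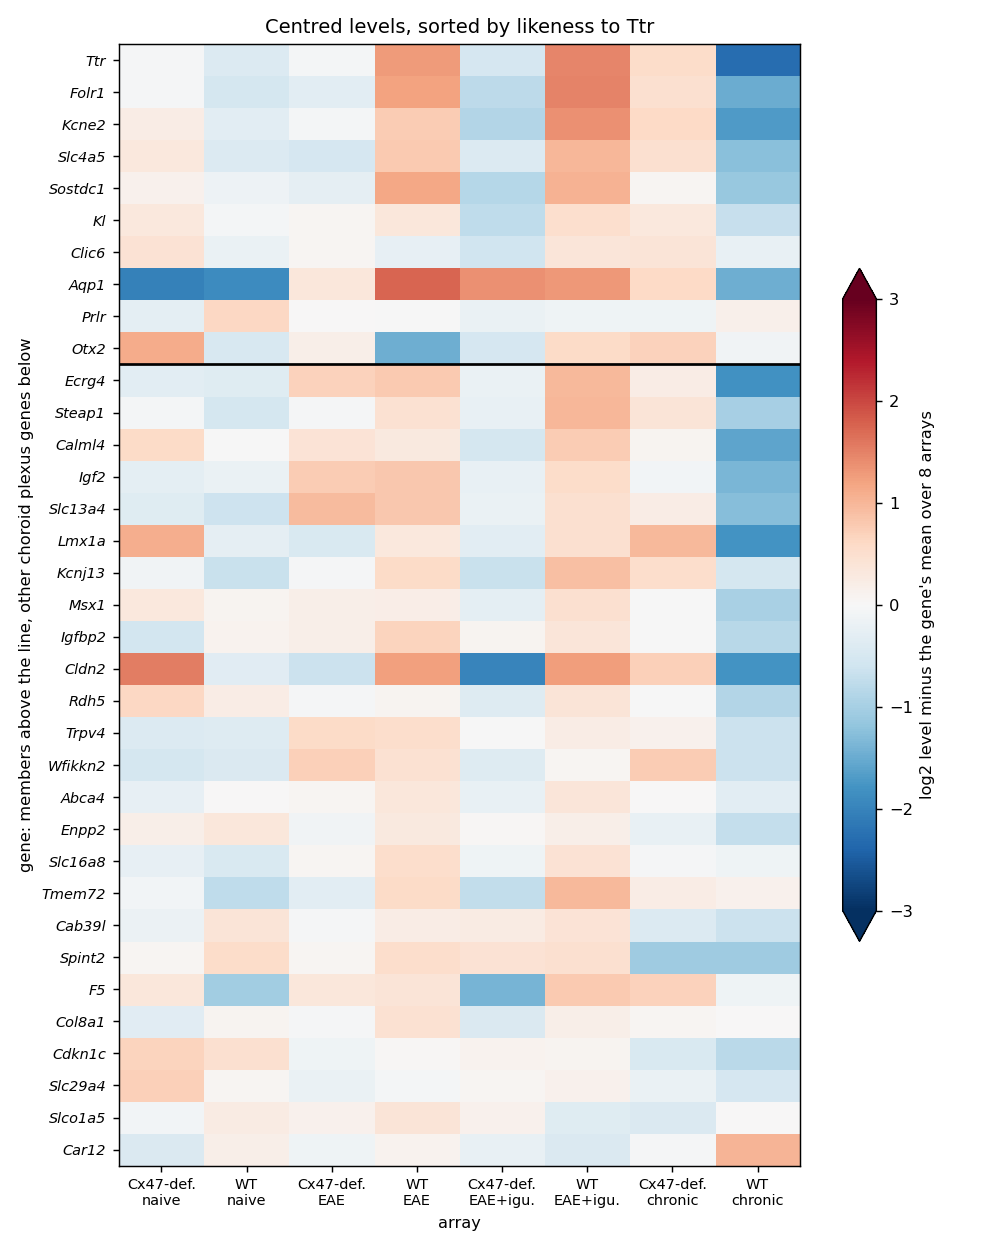
Rows are the 10 genes (above the line) and 25 further choroid plexus genes (below), each block sorted by likeness to Ttr, and columns are the 8 arrays; colour gives the log2 level minus the gene's mean over the 8 arrays, red above and blue below 0. The WT chronic column is blue for most rows, and the WT iguratimod column is red for most.

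Likeness to Ttr was measured for each of 25882 other genes as the root mean square difference, over the 8 arrays, of log2 levels centred on the gene's mean. It describes these arrays, shares their scaling and has no p-value. Ttr, Kcne2, Aqp1 and Folr1 were chosen on differences between these same arrays, so nothing is read from their ranks. Folr1 was the nearest of all genes (0.32), Kcne2 ranked 2 (0.33), Slc4a5 4 (0.49) and Sostdc1 5 (0.50). Kl ranked 123, Clic6 5674, Aqp1 13610, Prlr 15734 and Otx2 18619. The 8 nearest genes outside the 10 were Ecrg4 at rank 3 (0.44), Cltrn at 6 (0.55), Tex22 at 7, Tcea3 at 8, an unnamed region on chromosome 9 at 9, Steap1 at 10, Egflam at 11 and Lbp at 12 (0.59). Ecrg4 and Steap1 belong to the further choroid plexus list. Beyond these 8, the erythroid gene Alas2 ranked 13 and the erythroid gene Hbb-b2 25. The further choroid plexus genes Calml4, Igf2 and Slc13a4 ranked 15, 17 and 26. Cltrn was well above background on 2 arrays, Tcea3 on 5, Tex22 and the chromosome 9 region on 6, Egflam on 7, and Ecrg4, Steap1 and Lbp on all 8. When each array was left out in turn, Folr1 stayed at rank 1 to 2, Kcne2 at 1 to 3, Slc4a5 at 4 to 8 and Sostdc1 at 4 to 17, whereas Ecrg4 ranged between 3 and 18 and Tcea3 between 5 and 198. The ranks of the remaining genes of the 10 lay farther out: Kl between 44 and 652, Clic6 between 1411 and 8292, Prlr between 14006 and 16229, Otx2 between 3297 and 21887, and Aqp1 between 1287 and 22499.

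Among themselves the 5 genes of the Ttr pattern lay within 0.50 of each other, with Kcne2 and Folr1 nearest (0.24), and Kl and Clic6 lay 0.28 apart. Otx2 and Aqp1 were farthest apart of any pair (1.87). The range over the 8 arrays had a median of 2.44 on the log2 scale for the 10 genes and 1.08 for all 25883 genes tested. A 4-fold range was seen in 7 of 10, against 24.6% of all genes, and a 2-fold range in 9 of 10, Prlr being the exception, against 53.8%. The genes were chosen for differences between arrays, so these shares are a description. The summed linear level of the 10 genes without Ttr was 4.10 naive, 3.24 in EAE, 2.68 with iguratimod and 4.35 in the chronic phase on Cx47-deficient arrays, and 2.50 naive, 4.13 in EAE, 5.46 with iguratimod and 2.21 in the chronic phase on WT arrays.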

How the data were processed

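Extraction used TRIzol followed by column purification, and low-input amplification gave Cy3-labelled cRNA, per the labels' protocols. Scanner output was deposited as intensity per spot. Its software was Agilent Feature Extraction 10.7.1.1, per the file headers; the submitters' processing notes give version 9.5.1.1, and the difference was not resolved. The processed signal has background subtracted, per the file headers. The authors' deposited value table, judged from its values to be quantile normalized intensity, served as an alternative only. Flags and other columns were taken as deposited.

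The processed signal was taken to log2, here from the deposited intensity, and each array's percentile 75 was subtracted. Outlier spots (38 to 73 per array) were left out, and probes well above background on at least 2 of 8 arrays were kept, so that 15 of 18 probes and 10 of 10 genes entered. The kept probe with the highest mean signal stood for a gene. limma 3.58.1 in R 4.3.3 fitted condition plus genotype over all 8 arrays (3 residual and 2.12 prior degrees of freedom, prior SD 0.234), with Benjamini-Hochberg adjustment over 25883 genes; it was tested on simulated data. Nothing in the labels says that arrays came from separate animals, and no group has a second array. The p-values therefore rest on how far arrays depart from condition and genotype effects added together. Such departures hold any genotype difference that varies between conditions and may be technical. They are no measure of the spread between animals. Single-array differences were untested and counted at 2-fold or more where at least 1 array was well above background, with dim values raised to the lowest signal of a probe well above background on that array. The number of arrays limits the precision. Columns matching no sample numbered 0. The genes named beside the 10 were the 6 further choroid plexus genes of widest range and the 8 genes nearest to Ttr. Alas2, ranked next after these, and leading genes of the other lists were also named. The 10 genes and all lists were chosen with earlier results of these data known. Further lists of meningeal, myeloid, striatal and hepatocyte genes were computed, and the closing section gives them.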

Additional observations from a re-analysis of the deposited data

Results flagged for a closer look

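For 7 of the 10 genes the single-array genotype difference was 2-fold or more in one direction in 1 condition and in the opposite direction in another, and that change of direction flagged them. The distance between the opposite log2 differences (Cx47-deficient minus WT) was 4.82 for Ttr, 4.55 for Kcne2, 4.25 for Folr1, 3.14 for Slc4a5 and 3.13 for Sostdc1, each between chronic EAE and EAE with iguratimod. It was 3.47 for Aqp1 between chronic EAE and EAE, and 2.71 for Otx2 between EAE and EAE with iguratimod. With 1 array per group these differences between conditions were not tested.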

How the results depend on the processing

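No paired analysis was possible because each group has 1 array, so a replicate number could not enter as a block; condition and genotype are terms of the fit, which compares genotypes within conditions. In limma's fits 0 of the 10 genes were called in each of the 5 comparisons under every alternative that gave a value: normexp background correction, median centring, quantile normalization, the authors' processed values, the mean of probes, no filter, a filter on all 8 arrays, slide 1 alone, and each array left out in turn. The number of all genes called in EAE against naive was 64 higher and 1 lower, against 336 and 4 with median centring, 199 and 1 with normexp, 15 and 0 with no filter, and 0 without either EAE array, either chronic array or the naive Cx47-deficient array. In chronic EAE against EAE, 2348 were higher and 1407 lower, against 3875 and 3690 with normexp and 1 and 0 without either EAE array. In chronic EAE against naive, 183 were higher and 62 lower, against 1967 and 1929 with normexp and 5 and 7 with the authors' values. In iguratimod against EAE and in Cx47-deficient against WT, 0 of all genes were called under every processing setting. The 0 of 10 in those comparisons therefore says nothing particular to the 10 genes. For Aqp1 in EAE against naive, the log2 value was 3.004, against 1.96 with normexp and between 1.97 and 4.04 without 1 array. Its limma adjusted p was 0.179 or more in each of these. For Ttr in chronic EAE against EAE the value was -1.49, against 0.41 without WT chronic and -3.40 without Cx47-deficient chronic, and the median of the 10 genes was -0.71, against 0.45 and -1.91.

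Counts of genes past 2-fold between single arrays changed with the settings. At 3-fold, Cx47-deficient against WT gave 1 in EAE and 4 with iguratimod (6 and 7 at 2-fold), and WT EAE against naive 3 (6 at 2-fold). WT chronic against naive gave 1, and Cx47-deficient iguratimod against EAE 0. The shares of all genes past 3-fold are not given here, so nothing is read from these lower counts. The 1 gene left in the EAE genotype pair was Otx2, higher in Cx47-deficient mice (3.09-fold). The 5 genes lower there fell short of 3-fold, the largest being Folr1 at 2.86-fold. After normexp the counts were 4 with iguratimod, 3 for WT EAE against naive, 1 for WT chronic against naive and 0 for Cx47-deficient iguratimod against EAE. Counts over all genes fell too. Those 2-fold lower in Cx47-deficient than WT mice with iguratimod went from 520 to 133. Those higher in WT EAE than naive went from 753 to 353. Those lower in WT chronic than naive went from 2458 to 1535. Those higher in Cx47-deficient iguratimod than EAE went from 64 to 7. WT chronic against naive gave 7 with median centring and 6 with quantile normalization or the authors' values, against 2, and the naive genotype pair gave 2 under those 3 settings, against 1. All genes 2-fold lower in WT chronic than naive numbered 7585, 4014 and 3952 under those settings, against 2458. All genes 2-fold lower in naive Cx47-deficient than WT mice numbered 1803, 1149 and 1110, against 627. Median centring moved Clic6 in WT chronic against EAE to -0.58, against 0.02, and Prlr to -0.42, against 0.17. The median of all genes in that pair moved likewise, to -0.64, against -0.05. Of the 8 genes nearest to Ttr outside the list, 1 was kept with normexp, 4 with quantile normalization or the authors' values, and between 2 and 6 without 1 array, alternatives chosen after seeing the data. Folr1 fell to rank 21 with the mean of its probes, and Slc4a5 to 49 with normexp.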

Other observations

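Beside the choroid plexus genes, other lists differed between the genotypes in the single-array pairs. The 8 striatal neuron genes had a median Cx47-deficient minus WT difference of -3.10 naive, -0.01 in EAE, 1.996 with iguratimod and -2.40 in the chronic phase, a course unlike that of Ttr. The 8 myeloid genes had medians of 0.08 naive, 0.35 in EAE and 1.11 with iguratimod, with 4 of 8 above 0 in chronic EAE, and the 10 meningeal fibroblast genes had -0.23 naive, 0.10 in EAE, -0.05 with iguratimod and 0.54 in the chronic phase. The 9 cerebellar neuron genes had medians of 2.03 naive, 2.17 in EAE, -1.71 with iguratimod and 0.91 in the chronic phase. Of 6 hepatocyte genes, which include carriers that liver secretes beside transthyretin, 2 were kept and 1 was well above background on all 8 arrays. The 16 Hox genes had medians between -0.11 (EAE) and 0.25 (chronic EAE).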
